A study of Mus musculus with 6 samples.

Results

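The 9 genes described here, Spic, Vsig4, Siglec1, Folr2, Vcam1, Tmem119, Cd5l, Il18bp and Cbr2, are typical of macrophages that reside in spleen, liver or brain. They were found by gene name in the deposited tables, 1 record each, out of 51912 gene records. Mononuclear cells of mouse bone marrow (BMMNC, labelled as wild type) had grown for 10 days on hHVS (3 libraries) or on PCL (3 libraries) when their polyadenylated RNA was sequenced. PCL is the usual short form of polycaprolactone, a degradable polyester, whereas the labels do not expand hHVS. The labels do not state the age of the animals, nor that replicates are separate cultures or mice, so the p-values reflect no more than the spread among these libraries, which may be technical. The genes were selected on gene name from a list drawn up with the hHVS against PCL fold changes of these same libraries in view, so their values, fold changes, p-values and calls are given as a description, and nothing is supported with them.

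Resident macrophages settle in a tissue and take on gene programs set by that tissue. Red pulp macrophages of the spleen and Kupffer cells of the liver clear old red cells and circulating particles, and microglia are the resident macrophages of the brain. In mouse marrow, macrophages that carry VCAM-1 and sialoadhesin surround developing red cells. Cells grown out of marrow with macrophage growth factors usually lack much of these programs, which depend on signals such as haem, lipids and cytokines of the tissue.

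All 9 genes passed the filter on low values. In the fit across 16364 genes with edgeR's quasi-likelihood test, 6 of the 9 rose on hHVS at an adjusted p under 0.05 (Cd5l, Vsig4, Tmem119, Vcam1, Cbr2 and Folr2), and 0 fell. Of all genes tested 0.562% were called higher, 0.299% lower and 0.862% in either direction. Siglec1, Spic and Il18bp did not pass. The log2 fold change, hHVS minus PCL, was positive for all 9 with a median of 1.96, against a median of -0.01 and 47.8% positive over all genes tested. In CPM (counts scaled to the library total adjusted with a TMM factor), each gene was higher in every hHVS library than in any PCL library, as were 10.7% of all genes. In the deposited FPKM this held for 8 of the 9, the exception being Il18bp, and the share of all genes in FPKM was not computed. The number of calls changed with the library left out, among the 9 genes and among all genes tested in the same fit. With all 6 libraries it was 6 of the 9 and 141 of all genes. Dropping PCL replicate 1 gave 1 and 55, PCL replicate 2 gave 2 and 45, and PCL replicate 3 gave 7 and 154. For hHVS the counts were 2 and 32 (replicate 1 dropped), 5 and 63 (replicate 2) and 3 and 33 (replicate 3). With PCL replicate 3 and hHVS replicate 2 both left out they were 5 and 66.

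The libraries held 72.1 to 83.6 M units of deposited counts, treated as estimated counts, where about 4 units were taken as 1 sequenced fragment. A floor of 3 fragments, covering counting error only, equals 0.144 to 0.166 CPM in a single library. PCL replicate 3 and hHVS replicate 2 stood apart from the other libraries on the second principal component (23.4% of the variance). The pan-macrophage genes Csf1r and Adgre1, 2 of 13 listed, were abundant throughout and were picked after their values were seen. Of the 14 records of that list 11 had a positive log2 fold change. Lyz2 was at 13300 CPM on hHVS and at 9682 CPM on PCL, and Apoe at 6426 CPM on hHVS and at 4346 CPM on PCL. Cd14 was at 86.7 CPM on hHVS and at 175 CPM on PCL. These 3 genes were not used for scaling. Csf1r, the receptor for the main macrophage growth factor, was at 2021, 2071 and 2100 CPM in hHVS replicates 1 to 3 and at 2070, 2274 and 2152 CPM in PCL replicates 1 to 3. Adgre1, which encodes the macrophage surface protein F4/80, was at 1342, 1309 and 1335 CPM on hHVS and at 1174, 1177 and 1131 CPM on PCL (adjusted p = 0.223, edgeR). Scaled to Csf1r in the same library, each of the 9 genes was higher in every hHVS library, with a ratio of means between 1.90 for Il18bp and 13.5 for Vsig4. Scaled to Adgre1 this held for 8 of the 9, again except Il18bp. The share of all genes that did so was not computed for either scaling, so these counts have no background. The ratios depend on the gene chosen for scaling. In bulk RNA fewer cells of a type and less RNA per cell cannot be told apart.

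Levels between genes were compared per length, in deposited FPKM. Cd5l stood far above the rest, at 1127 ± 205 FPKM on hHVS and at 233 ± 61.4 FPKM on PCL (SD, n = 3 each), which ranked 32nd and 136th among the 26793 genes with any count. Folr2 followed at 55.8 ± 6.98 FPKM on hHVS and 25.7 ± 4.41 FPKM on PCL, and Siglec1 at 15.6 ± 1.95 FPKM on hHVS and 7.80 ± 1.90 FPKM on PCL. Il18bp was at 7.04 ± 0.530 FPKM on hHVS and 4.10 ± 2.20 FPKM on PCL, and Cbr2 at 6.26 ± 0.844 FPKM on hHVS and 1.68 ± 0.158 FPKM on PCL. The libraries of Il18bp overlapped those of Cbr2 on hHVS and those of Siglec1 on PCL. On hHVS the libraries of Tmem119 (2.57 ± 0.629 FPKM) and Spic (2.43 ± 0.487 FPKM), of Spic and Vcam1 (1.83 ± 0.938 FPKM), and of Vcam1 and Vsig4 (1.07 ± 0.270 FPKM) overlapped in turn. On PCL Spic (1.05 ± 0.426 FPKM) lay just above Tmem119 (0.486 ± 0.147 FPKM), Tmem119 overlapped Vcam1 (0.401 ± 0.0997 FPKM), and Vsig4 was lowest at 0.0838 ± 0.0350 FPKM.

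**Figure D1:**
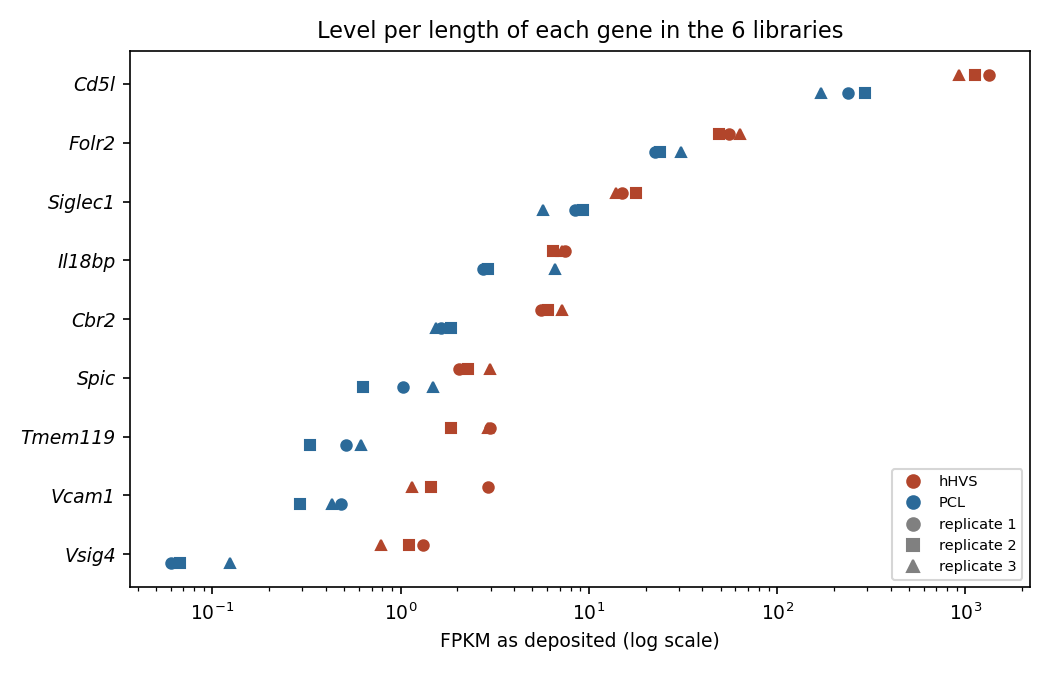
Deposited FPKM of each gene (log axis) in the 3 hHVS and the 3 PCL libraries, with the replicate given by the shape of the point. Cd5l lay highest and Vsig4 lowest by mean on both materials, and the libraries of the groups overlapped for Il18bp.

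The FPKM lengths weigh on this order. For the 9 genes the length implied by counts and FPKM was 1.10 to 1.12 times the summed length of all exons in GENCODE M21, so FPKM appears to have been divided by all exons of a gene. Vcam1 has 8870 exon bases in all, of which its longest protein-coding transcript covers 3469. Spic has 3841 exon bases against 1763 in that transcript. Rescaled to the longest protein-coding transcript, Spic came to 5.30 ± 1.06 FPKM on hHVS and 2.29 ± 0.928 FPKM on PCL. Vcam1 came to 4.67 ± 2.40 FPKM on hHVS and 1.03 ± 0.255 FPKM on PCL. By mean both then lay above Tmem119, at 2.66 ± 0.649 FPKM on hHVS and 0.502 ± 0.151 FPKM on PCL. The hHVS libraries of Vcam1 and Tmem119 still overlapped. The rescaling changed the length only and kept the counts of all exons. It therefore sets a level too high where exons outside that transcript hold reads.

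The window of 250 bases upstream of the gene start was read from RefSeq (GRCm38.p6) for 6 of the 9 genes (7 windows, 2 of them for Folr2). By GENCODE M21 the Il18bp window lies wholly in annotated exons, as do 93 bases of the Cbr2 window and 4 of a Folr2 window. The other Folr2 window and the Spic window lie inside their annotated genes, so these are not all upstream of every annotated start. SPI-C and its relative PU.1 bind purine-rich sites, so the letters GAGGAA were searched on both strands. They occurred in 3 of the 7 windows, those of Cd5l, Vsig4 and Cbr2, and in 23.3% of 32851 windows of all genes. TGCTGAC (a MAF recognition element, in 3.81% of all windows), the core repeat of interferon response elements (2.98%), GGGNTTTCC (an NF-kB site, 1.46%) and the LXR direct repeat with a spacer of 4 bases (0.0152%), each on both strands, had no match in the 7 windows. A match is not a binding site. The windows of Cd5l and Vsig4, the most abundant of the 9 genes and that with the largest fold change, are given with GAGGAA, or its reverse complement in Cd5l, in capitals. They lie at chr3:87357631-87357880 (plus strand) and chrX:96293439-96293688 (minus strand).
Cd5l: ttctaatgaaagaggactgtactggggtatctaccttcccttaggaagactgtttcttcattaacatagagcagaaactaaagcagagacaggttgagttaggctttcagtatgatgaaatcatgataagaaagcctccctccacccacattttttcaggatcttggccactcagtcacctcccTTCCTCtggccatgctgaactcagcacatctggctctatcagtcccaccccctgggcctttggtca
Vsig4: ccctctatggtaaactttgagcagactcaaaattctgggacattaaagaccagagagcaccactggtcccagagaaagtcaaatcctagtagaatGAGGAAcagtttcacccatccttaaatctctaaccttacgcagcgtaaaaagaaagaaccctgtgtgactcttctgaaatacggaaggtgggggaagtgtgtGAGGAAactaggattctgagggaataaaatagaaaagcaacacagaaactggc

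Spic encodes SPI-C, an ETS-family transcription factor that mouse red pulp macrophages need to develop. It is known to be induced by haem. The gene lies on the minus strand at chr10:88674772-88685015 (mm10). It was at 9.03, 9.79 and 12.97 CPM in hHVS replicates 1, 2 and 3 and at 4.28, 2.69 and 6.07 CPM in PCL replicates 1, 2 and 3. The groups did not overlap, but PCL replicate 3 was 2.25 times PCL replicate 2, and a log2 fold change of 1.29 ± 0.30 (SE) did not pass (adjusted p = 0.123, edgeR). It did not pass without any single library either (adjusted p 0.0632 to 0.372).

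Vsig4, a complement receptor of resident macrophages that binds fragments of C3 and is a mark of Kupffer cells, had the largest fold change of the 9. It lies at chrX:96247203-96293438. It was at 2.25, 1.86 and 1.32 CPM on hHVS, and at 0.105, 0.110 and 0.206 CPM on PCL, in the order of the replicates. In fragments these are about 40.5, 38.2 and 25.2 on hHVS and 2, 2 and 4 on PCL, so PCL replicates 1 and 2 were below the floor of 3 fragments and replicate 3 just above it. Summed over libraries the hHVS to PCL ratio was 12.1 (exact 95% interval 5.90 to 28.7 from 104 against 8 fragments, covering counting error only). The fitted log2 fold change was 3.67 ± 0.41 (adjusted p = 0.013, edgeR). The call was lost without PCL replicate 1 (0.053), PCL replicate 2 (0.0544) or hHVS replicate 1 (0.0684).

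Siglec1 encodes sialoadhesin (CD169), a lectin that binds sialic acid on other cells and marks macrophages of lymphoid tissue and of the marrow. It lies at chr2:131069220-131086765. It was at 123, 142 and 113 CPM on hHVS and at 64.3, 73.4 and 42.9 CPM on PCL. The lowest hHVS library was 1.54 times the highest PCL library, and PCL replicate 3 was the lowest. Siglec1 differed by 1.06 ± 0.19 on the log2 scale (edgeR, adjusted p = 0.0683). It passed without PCL replicate 3, although the fold change was then smaller (0.87, adjusted p = 0.0362), and missed the threshold without any other single library (up to 0.193).

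Folr2 encodes folate receptor beta, a membrane-anchored receptor found on resident macrophages of many tissues. It lies at chr7:101839988-101857194. It was at 98.1, 85.0 and 110 CPM on hHVS and at 37.1, 40.9 and 50.2 CPM on PCL. Every hHVS library was at least 1.69 times the highest PCL library, and the spread was narrow on both materials (coefficient of variation 12.9% on hHVS and 15.9% on PCL). Folr2 differed by 1.19 ± 0.14 on the log2 scale (edgeR, adjusted p = 0.0151). It remained past the threshold only without hHVS replicate 2 or PCL replicate 3, and missed it without hHVS replicate 1 (0.0767), hHVS replicate 3 (0.0708), PCL replicate 1 (0.0534) or PCL replicate 2 (0.07). The annotated antisense gene Gm10602 covers 63.1% of its exon bases on the other strand. Gm10602 itself was at 5.81 ± 2.76 CPM on hHVS and at 4.67 ± 1.82 CPM on PCL. The sources used here do not say whether reads were counted by strand, so reads of the pair may have been split between them and the level of Folr2 is uncertain to that extent.

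Vcam1 encodes an adhesion molecule that binds the integrin of alpha4 and beta1 chains. Macrophages of the spleen and marrow carry it, as do activated endothelium and marrow stroma. It lies at chr3:116109949-116129688. It was at 29.5, 14.3 and 11.5 CPM on hHVS and at 4.60, 2.86 and 4.07 CPM on PCL. The hHVS libraries varied most of the 9 genes: replicate 1 was 2.57 times replicate 3 (coefficient of variation 52.5%), against 23.3% on PCL. The log2 fold change of 2.26 ± 0.37 was past the threshold by a small margin (adjusted p = 0.0497, edgeR) and missed it whichever library was left out (0.0684 to 0.154). It was lost under 14 of 16 alternatives, among them DESeq2 size factors in edgeR (0.0503), library totals (0.0505), no filter on low counts (0.088) and limma-voom (0.0938), and held with DESeq2 and with units divided by 4 (0.044). Without hHVS replicate 1 it was 1.75. The 12 marrow stromal genes listed summed to 28.2 to 77.8 CPM on hHVS and to 60.5 to 185 CPM on PCL, and the 10 of them that were tested were all lower by fold change on hHVS under each of the 3 scalings tried. None of these passed in the edgeR fit, while 2 of the list were called lower with DESeq2 and 1 with edgeR on units divided by 4. The 9 endothelial genes summed to 56.5 to 70.0 CPM on hHVS and to 65.6 to 126 CPM on PCL, most of it Vwf. Kdr was at 6.82 CPM on hHVS and at 9.07 CPM on PCL, and Pecam1 at 1.56 CPM on hHVS and at 1.98 CPM on PCL. Egfl7, Erg, Emcn, Tek, Tie1 and Cldn5 were each at most 0.541 CPM in any library. The part of stromal and endothelial cells in the difference of Vcam1 was not tested.

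Tmem119 encodes a membrane protein used to tell microglia from other macrophages in the brain, and it is also made by osteoblasts. It lies at chr5:113793729-113800516. It was at 7.91, 4.79 and 7.59 CPM on hHVS and at 1.28, 0.842 and 1.52 CPM on PCL. hHVS replicate 2 was the lowest of its group, yet 3.15 times the highest PCL library. Tmem119 differed by 2.47 ± 0.29 on the log2 scale (edgeR, adjusted p = 0.0151). The call was lost without hHVS replicate 1 (0.0752), hHVS replicate 3 (0.0803), PCL replicate 1 (0.0709) or PCL replicate 2 (0.0502). The 8 osteoblast genes listed summed to 13.5 to 19.5 CPM on hHVS and to 14.3 to 23.4 CPM on PCL, most of it Runx2 (15.5 ± 2.72 CPM on hHVS against 18.4 ± 4.37 CPM on PCL). Of the other 7, Sp7 was at 0.398 CPM on hHVS and at 0.518 CPM on PCL. Ibsp was at 0.167 CPM, Bglap2 at 0.118 CPM and Alpl at 0.0741 CPM on hHVS, and all 3 were at 0 on PCL, the same direction as Tmem119. These 3 rest on 39, 27 and 16 units in all 6 libraries together. Runx2 and Sp7, the 2 genes tested, were lower on hHVS by fold change, the other direction. Ibsp and Alpl passed the floor in at least 1 hHVS library, whereas Bglap2, Bglap, Phex and Dmp1 were under it in every library. With edgeR 0 of the 2 genes tested passed, and with DESeq2 1 of the 8 was called higher. Their part in the difference of Tmem119 was not tested.

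Cd5l encodes a scavenger-type protein (also called AIM) that macrophages secrete and that protects them from apoptosis. It is a known target of the oxysterol receptor LXR. It lies at chr3:87357881-87371073, on the plus strand. It was at 3113, 2565 and 2124 CPM on hHVS and at 519, 657 and 367 CPM on PCL. The lowest hHVS library was 3.23 times the highest PCL library. Cd5l differed by 2.34 ± 0.23 on the log2 scale (edgeR, adjusted p = 0.00899), which ranged from 2.15 to 2.55 with 1 library left out. The call was lost only without PCL replicate 1 (adjusted p = 0.0502).

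Il18bp encodes a secreted decoy that binds interleukin-18 and blocks it. It lies at chr7:102014885-102018690. It was at 25.9, 21.8 and 24.7 CPM on hHVS and at 8.87, 9.77 and 21.3 CPM on PCL. PCL replicate 3 was 2.40 times PCL replicate 1 and lay just under the lowest hHVS library, which was 1.02 times as high. In FPKM the order of these libraries turned round, with 6.44 in hHVS replicate 2 and 6.64 in PCL replicate 3. The log2 fold change was 0.86 ± 0.32 (adjusted p = 0.309, edgeR). Without PCL replicate 3 it was 1.37 and passed (0.0148), and no other left-out library gave a call (0.402 to 0.598). Il18bp shares 2.64% of its exon bases with Numa1 on the opposite strand, which was at 288 ± 8.80 CPM on hHVS and at 294 ± 16.9 CPM on PCL.

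Cbr2 encodes a carbonyl reductase, an enzyme that reduces aldehydes and ketones, and is made by some resident macrophages of mice. It lies at chr11:120729489-120732114. It was at 8.49, 8.96 and 10.8 CPM on hHVS and at 2.35, 2.75 and 2.19 CPM on PCL. The libraries of each group lay close together (coefficients of variation 13.1% on hHVS and 11.8% on PCL) and the groups lay 3.09 times apart at their nearest libraries. The log2 fold change was 1.96 ± 0.17 (adjusted p = 0.00698, edgeR). Of the 9 genes only Cbr2 passed whichever single library was left out (adjusted p 0.0163 to 0.0384). Of its 50-base words, 12.1% also occur in Gm11771, which was at 0 in all PCL libraries and at most 0.0653 CPM on hHVS.

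**Figure D2:**
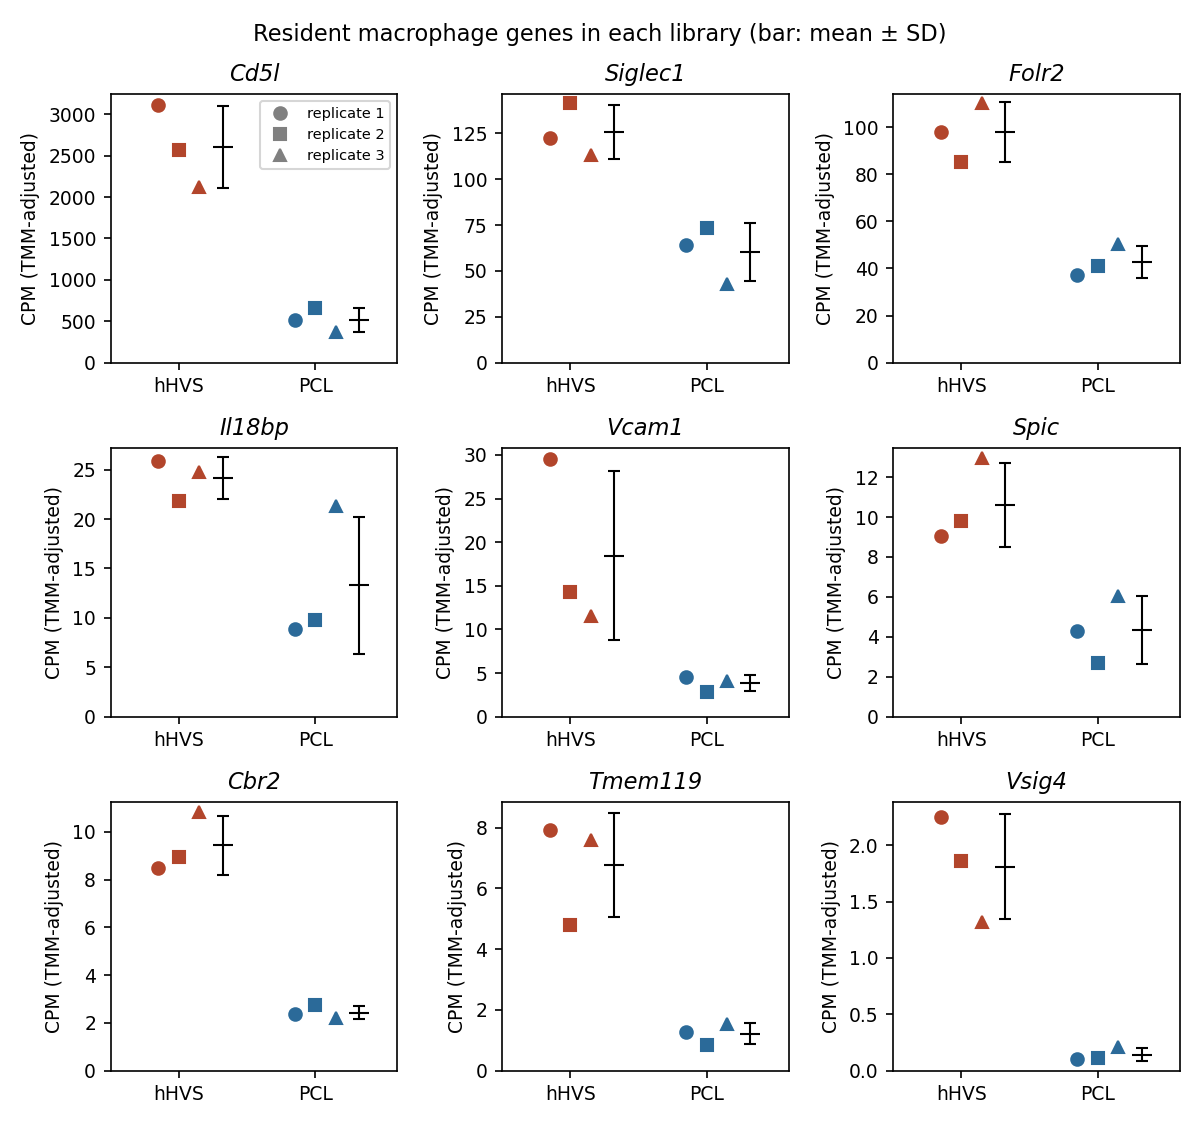
TMM-adjusted CPM of each gene in the hHVS libraries (left) and the PCL libraries (right), 1 panel per gene with its own linear axis from 0, points for libraries and bars for mean ± SD (n = 3 each). Vcam1 is high in hHVS replicate 1 at 29.5 CPM, and Il18bp in PCL replicate 3 at 21.3 CPM.

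The 9 genes did not follow 1 order across libraries of a group. Of the hHVS libraries, replicate 1 was highest for Cd5l, Vsig4, Tmem119, Vcam1 and Il18bp, replicate 3 for Folr2, Spic and Cbr2, and replicate 2 for Siglec1. Of the PCL libraries, replicate 3 was highest for Vsig4, Folr2, Tmem119, Spic and Il18bp but lowest for Cd5l, Siglec1 and Cbr2. This is the library that stood farthest from the others on the second principal component.

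**Figure D3:**
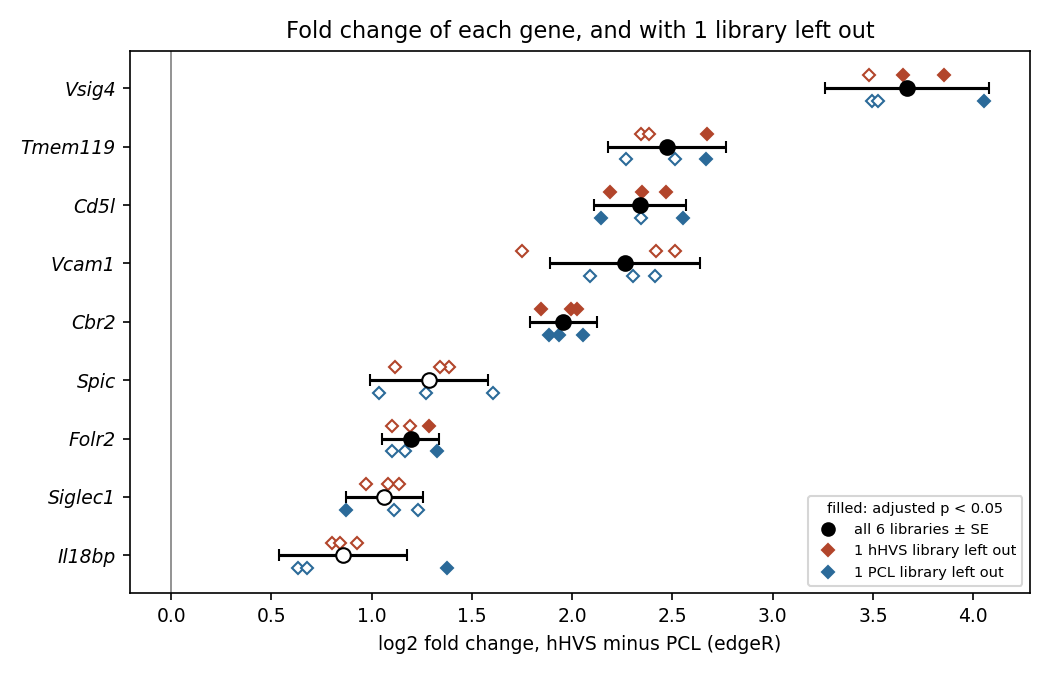
Log2 fold change, hHVS minus PCL, of each gene in the edgeR fit (black, ± SE, 6 libraries) and with a single hHVS or PCL library left out (diamonds), filled where the adjusted p was under 0.05. All values are above 0, from 0.63 for Il18bp without PCL replicate 1 to 4.05 for Vsig4 without PCL replicate 3.

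The genes nearest in profile to each member were found among 8764 others with a mean of at least 10 CPM, by the root mean square distance between log2 CPM profiles over the 6 libraries, each centred on its own mean. Folr2 lay closest to Met, a growth factor receptor gene (distance 0.09), and to the glutathione transferase gene Gsta3 (0.14). After these came Rab34 (0.18). Met was at 27.4 ± 2.92 CPM on hHVS and at 12.9 ± 1.52 CPM on PCL. Siglec1 lay closest to Fgl2 (0.07), at 21.4 ± 2.03 CPM on hHVS and at 10.7 ± 2.97 CPM on PCL, and then to Ecm1 (0.14) and Adcy3 (0.15). Il18bp lay closest to Sike1 (0.14), Suz12 (0.19) and Gm1673 (0.22), which shared its high value in PCL replicate 3: Sike1 was at 64.5, 70.3 and 69.4 CPM on hHVS and at 29.2, 30.4 and 68.4 CPM on PCL. Cd5l and Vcam1 had no close neighbour. The nearest to Cd5l was Bst1 (0.48), followed by Vcam1 and Gstm2 (0.49 each), and the nearest to Vcam1 were Cd5l (0.49), Gstm2 (0.54) and Bst1 (0.56). The other 4 members have means under 10 CPM and were not searched.

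Other genes of resident macrophages were taken from lists that exclude the 9. The 7 defining genes named for resident macrophages differed widely in level. Gata6 is not one of the 7 and was added after its values were seen, and Cd163 and P2ry12 are given below. Clec4f, a defining gene of Kupffer cells, Sall1, a transcription factor gene of microglia, and Gata6, a transcription factor gene of peritoneal macrophages, had no counts in any library, so that each could reach 0.0505 CPM across the hHVS libraries or 0.0545 CPM across the PCL libraries and be missed. Timd4, a receptor gene of Kupffer and peritoneal macrophages, reached 0.218 CPM in 1 hHVS library and was at 0 on PCL. The iron-handling genes Slc40a1 and Hmox1 were abundant on both materials. The 9 genes are described by name and not as the mark of 1 tissue.

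Of the 18 genes listed for Kupffer cells and red pulp macrophages, 15 were tested, 2 rose and 1 fell. Marco, a scavenger receptor gene, was at 60.7, 124 and 134 CPM on hHVS and at 9.78, 5.48 and 10.8 CPM on PCL (adjusted p = 0.0105, edgeR; 0.053 without PCL replicate 1). Epor, the erythropoietin receptor gene, which macrophages of erythroblastic islands carry, was at 2.93 ± 0.798 CPM on hHVS and at 0.683 ± 0.243 CPM on PCL (adjusted p = 0.0499, edgeR), and missed the threshold whichever library was left out (up to 0.178). Itgad, an integrin chain gene of red pulp macrophages, fell to 0.907 ± 0.0456 CPM on hHVS, against 3.70 ± 0.379 CPM on PCL (adjusted p = 0.00899, edgeR), and passed whichever library was left out. Cd163, the haemoglobin scavenger receptor gene, was at 1.36, 0.922 and 1.19 CPM on hHVS and at 0.183, 0.400 and 0.103 CPM on PCL, a log2 fold change of 2.34 that did not pass (adjusted p = 0.115, edgeR). The haem oxygenase gene Hmox1 was at 1659 ± 66.7 CPM on hHVS and at 1228 ± 272 CPM on PCL (adjusted p = 0.266, edgeR). The iron exporter gene Slc40a1 was at 1133 ± 37.1 CPM on hHVS and at 1026 ± 97.9 CPM on PCL (adjusted p = 0.521, edgeR). The median log2 fold change of this list was 0.14, and 8 of 15 were positive. The count of 3 calls was 1 without PCL replicate 1 and 0 without both PCL replicate 3 and hHVS replicate 2.

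Of 14 microglia genes 11 were tested and 0 passed with edgeR (3 at an unadjusted p under 0.05, as had 13.1% of all genes; 1 with DESeq2 and 0 with limma-voom). The median log2 fold change was -0.02. P2ry12, a purine receptor gene of microglia, was at 3.37 ± 0.719 CPM on hHVS and at 1.88 ± 0.359 CPM on PCL (adjusted p = 0.201, edgeR). Trem2, a lipid receptor gene found in many macrophages, was at 829 ± 35.2 CPM on hHVS and at 1012 ± 52.2 CPM on PCL (adjusted p = 0.145, edgeR).

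Of 14 genes of perivascular and interstitial macrophages 9 were tested, all 9 with a positive log2 fold change under each of the 3 scalings tried (median 0.60 with TMM factors and 0.52 with library totals). In this list 1 passed with edgeR (5 at an unadjusted p under 0.05), 5 with DESeq2, 2 with edgeR on units divided by 4 and 0 with limma-voom. The ligand gene Gas6 rose to 852 ± 63.7 CPM on hHVS, against 602 ± 37.1 CPM on PCL (adjusted p = 0.0497, edgeR), and missed the threshold whichever library was left out (up to 0.223) and with library totals. Of 8 tested genes of alveolar and peritoneal macrophages 1 rose, Lbp, which encodes a lipopolysaccharide-binding protein, at 3.10 ± 0.803 CPM on hHVS and at 0.266 ± 0.153 CPM on PCL (adjusted p = 0.0263, edgeR). It remained past the threshold only without PCL replicate 3 (up to 0.103 without the others). The median of this list was 0.003, and 4 of the 8 were positive. DESeq2 called 2 genes of the list higher and 2 lower. With library totals, and also with units divided by 4, 1 was called higher and 1 lower. Of the 13 blood monocyte genes 0 passed with edgeR (4 at an unadjusted p under 0.05; 3 with DESeq2, 0 with limma-voom), with a median of -0.14, and Itga4, whose product is the alpha4 integrin chain that binds VCAM-1, was at 219 ± 18.8 CPM on hHVS and at 159 ± 21.5 CPM on PCL (adjusted p = 0.152, edgeR). Of the 13 pan-macrophage genes (14 records) 0 passed (5 at an unadjusted p under 0.05; 4 with DESeq2, 0 with limma-voom), with a median of 0.07 that turned to -0.01 when library totals replaced TMM factors. Lyz2, their most abundant gene, was at 13300 ± 684 CPM on hHVS and at 9682 ± 1134 CPM on PCL (adjusted p = 0.105, edgeR).

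Of 18 macrophage transcription factor genes tested 1 rose, Rxra, the partner of LXR in binding DNA, which was at 235 ± 13.9 CPM on hHVS and at 156 ± 14.7 CPM on PCL (adjusted p = 0.0408, edgeR). It missed the threshold whichever library was left out (up to 0.182) and with library totals. The median log2 fold change of this list was -0.02, and 9 of the 18 were positive. With DESeq2 1 was called higher and 2 lower. The LXR genes Nr1h3 and Nr1h2 were at 40.6 and 80.5 CPM on hHVS and at 45.6 and 83.2 CPM on PCL. Of 21 tested genes for partners and relatives of the 9, 1 rose and 1 fell. C3, whose fragments VSIG4 binds, was at 17.1, 21.6 and 24.9 CPM on hHVS and at 8.54, 10.5 and 7.06 CPM on PCL (adjusted p = 0.0374, edgeR; up to 0.149 with 1 library left out, and never past the threshold then). Il18rap, a chain of the interleukin-18 receptor, was at 0.515 ± 0.0887 CPM on hHVS and at 2.43 ± 0.903 CPM on PCL, and fell by 2.24 on the log2 scale (adjusted p = 0.0374, edgeR). It remained past the threshold only without PCL replicate 3 (up to 0.161 without the others).

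**Figure D4:**
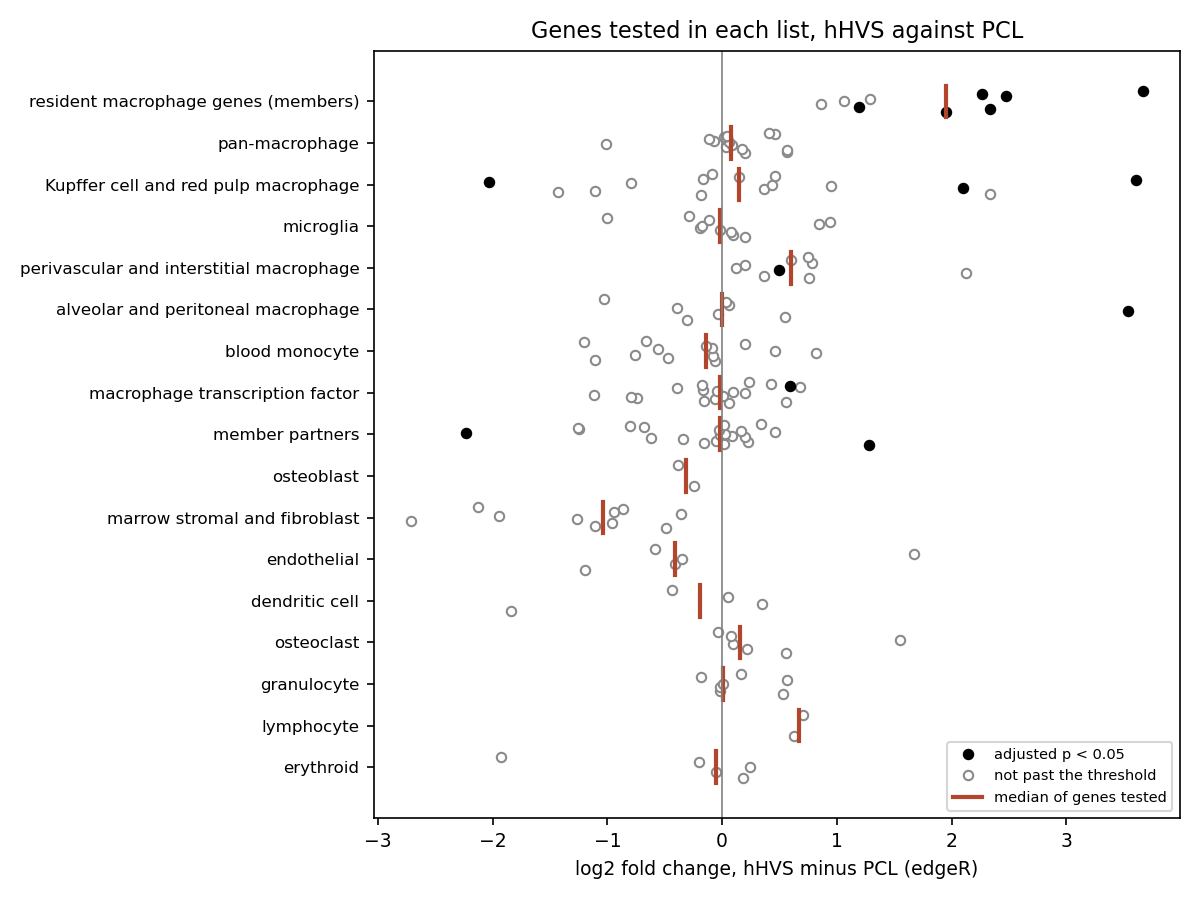
Log2 fold change, hHVS minus PCL, of every tested gene of the 9 and of each list, filled where the adjusted p was under 0.05, with the list's median as a bar. The 9 genes, chosen with these values in view, have a median of 1.96, and the medians of the other lists lie between -1.04 and 0.67.

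Genes of other cell types passed in none of their lists with edgeR on the deposited units, and 1 stromal gene was called lower on units divided by 4. This covered stromal (4 at an unadjusted p under 0.05; DESeq2 2, limma-voom 0), endothelial (1; 0 and 0), osteoblast (0; 1 and 0), osteoclast (2; 1 and 0), dendritic, granulocyte, lymphocyte and erythroid genes (0, 0 and 0 in each of these 4 lists). The median log2 fold change was -1.04 for stromal genes, where Col1a2 was at 24.6, 3.90 and 20.9 CPM on hHVS and at 67.7, 18.0 and 10.5 CPM on PCL and the groups overlapped. Among their most abundant genes, Vwf was at 56.1 ± 7.38 CPM on hHVS and at 84.1 ± 31.0 CPM on PCL, and the osteoclast gene Atp6v0d2 at 770 ± 60.5 CPM on hHVS and at 663 ± 160 CPM on PCL. Clec9a, S100a8, Klrb1c and Hba-a1, the most abundant genes of the dendritic, granulocyte, lymphocyte and erythroid lists, averaged at most 3.69 CPM in either group. Lymphocyte genes summed to at most 1.64 CPM in any library, dendritic cell genes to 2.86, erythroid genes to 8.46 and granulocyte genes to 14.3 CPM. The part of these cells in the differences of the 9 genes was not tested.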

How the data were processed

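The 6 libraries of polyadenylated BMMNC RNA were made with a kit that marks strand, per the labels' protocols. The authors deposited counts treated here as estimated counts, under a label of raw count, and FPKM per gene. The submitters' processing notes list mm10 and, among tools, FastQC, MultiQC, STAR and featureCounts. Which tool made each table, and the versions, are not given in these notes. The deposited counts are whole numbers that peak at multiples of 4 (the value 4 filled 6544 cells, 3 filled 2701 and 5 filled 1483), so about 4 units were taken as 1 fragment. On this pattern alone they were analysed as estimated counts, which needed no rounding, with edgeR 4.0.16 in R 4.3.3. Genes were filtered with filterByExpr (minimum count 10, in deposited units and not in fragments) and scaled with TMM factors (0.959 to 1.05). They were compared with glmQLFit and glmQLFTest, with group as the only term and Benjamini-Hochberg adjustment over all genes. The threshold was 0.05. Totals were 72.1 to 83.6 M units, or 18.0 to 20.9 M fragments, per library. Intervals and floors (3 fragments) cover counting error only. On simulated counts of 16364 genes, 200 of them changed by 2 on the log2 scale, the fit called 100% of those 200. The simulation used a single common dispersion, changed none of the scarcest genes and did not copy the peaks at multiples of 4. It therefore does not show how the fit treats scarce genes of these data. FPKM served only to compare levels between genes and as an alternative (limma 3.58.1, pseudocounts 1 and 0.1). DESeq2 1.42.0 was an alternative too.

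Within groups the libraries differed by a chi-square per gene of at least 10.5, so all were kept as separate. Replicate numbers shared between groups were not taken as pairs in the main fit, and a fit with replicate number as a block is given below. The members and lists were chosen with earlier results of these data known. The rule for named genes took the 9 members, 7 defining genes (Clec4f, Timd4, Cd163, Slc40a1, Hmox1, P2ry12, Sall1), up to 3 called genes per list with at least 1 CPM or else its most abundant gene, and the 3 nearest profiles of each member that averaged at least 10 CPM. Csf1r, Adgre1, Gata6, Nr1h3, Nr1h2, and the genes that overlap or share sequence with a member were added after their values were seen. So were the marker genes named beside Vcam1 and Tmem119. Coordinates came from GENCODE M21 (GRCm38, the assembly of mm10), matched by identifier.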

Additional observations from a re-analysis of the deposited data

How the results depend on the processing

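The direction of all 9 genes held in all 144 combinations of gene and alternative (16 alternatives). The number of the 9 past the threshold was 6 and ranged from 1 to 7 with 1 library left out. It was 5 with DESeq2 size factors in edgeR, with library totals, without the filter on low counts, with limma-voom and with limma on FPKM at either pseudocount (Vcam1 was the call lost in each of these), 6 with units divided by 4, and 9 with DESeq2. The number of all genes past the threshold was 141. It was 128 with DESeq2 size factors in edgeR, 145 with library totals and 76 without the filter on low counts. It was 658 with DESeq2, 127 with limma-voom and 165 with units divided by 4. Limma gave 94 on log2(FPKM + 1) and 84 on log2(FPKM + 0.1). The count was 66 without both PCL replicate 3 and hHVS replicate 2, and it ranged from 32 to 154 with 1 library left out. The genes tested numbered 16364 in the main fit, 13535 with units divided by 4, 26793 without the filter and 26765 with DESeq2. They numbered 16868 to 16949 with 1 library left out and 16543 without both. With library totals the split of all calls was 71 higher and 74 lower, against 92 and 49 with TMM factors. With replicate number as a block 36 genes passed, 4 of them among the 9 (Cbr2, Cd5l, Folr2 and Tmem119). Same-numbered libraries had correlations of deviations of 0.12, -0.01 and -0.06. The libraries numbered 1 correlated best with each other, and the others did not correlate best with their own number. Deviations from means of 3 libraries cannot exclude pairing, and the numbers are not taken as pairs. The cause of these changes was not tested. On the log2(FPKM + 1) scale fold changes of low genes are compressed: Vsig4 came to 0.93, against 3.67 in edgeR. With 3 libraries a group and 2 to 4 fragments per PCL library, the size of the difference in Vsig4 is limited by depth.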
